A study of Homo sapiens with 6 samples.

Results

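The miR-125 and miR-99/100 families were followed in exosomes released by H9 cells, an established human embryonic stem (ES) cell line. The 5 members, hsa-miR-125a-5p, hsa-miR-125b-5p, hsa-miR-99a-5p, hsa-miR-99b-5p and hsa-miR-100-5p (written without the species prefix from here on), were taken by name from the 2549 human miRNAs on each array. They were chosen by the difference of the signal of miR-125b-5p between the cell states on these same arrays, together with their shared seeds and loci, so the differences of the members between the states are descriptions and carry no test. All H9 cells were grown on Matrigel in TeSR-E8 medium without feeder cells, and exosomes were precipitated from the medium with ExoQuick-TC. The substates were told apart by colony staining, with the pluripotency epitope R-10G bright in substate 1 and dim in substate 2, and the mesenchymal protein vimentin marking substate 2. Each of 3 experiments had 1 single-colour (Cy3) array per substate. Substate 1 was at passages 41, 46 and 50 and substate 2 at passages 52, 61 and 65 in experiments 1, 2 and 3, so substate and passage cannot be told apart. The amount labelled did not differ between the substates and was 72.4 ng for the first pair of arrays, 100 ng for the second and 51.4 ng for the third. All cells come from 1 line.

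MicroRNAs pair with target mRNAs mainly through their seed, the bases from position 2 to position 8. The miR-125 family is the mammalian form of lin-4, the developmental timing miRNA of worms, and is known for high levels in brain and for targets such as LIN28A, which keeps let-7 from maturing in ES cells. The miR-99/100 family is known for targeting MTOR. In the human genome both families sit beside let-7 genes at 3 loci, so that a long primary transcript can carry a member of each. The question put to the arrays was whether the members linked in this way move together with miR-125b-5p.

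The mature sequences of the 5 members are shown because seed and remaining bases decide which members can be told apart. They are given from 5′ to 3′, with the seed in capitals, from RefSeq (GRCh38.p14), where all 5 members were found.
miR-125a-5p: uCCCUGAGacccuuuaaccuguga
miR-125b-5p: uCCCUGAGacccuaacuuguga
miR-99a-5p: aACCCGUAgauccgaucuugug
miR-99b-5p: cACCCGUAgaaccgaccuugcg
miR-100-5p: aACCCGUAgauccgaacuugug

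The first 2 share 1 seed and the last 3 share another. MiR-125a-5p (24 bases) and miR-125b-5p (22 bases) have their first 13 and last 5 bases in common. MiR-99a-5p and miR-100-5p differ at a single position, counted from the 5′ end, with U16A from miR-99a-5p to miR-100-5p, and the other 21 bases are identical. From miR-99a-5p to miR-99b-5p there are 4 changes, A1C, U11A, U16C and U21C. Among 2370 mature names in the same table, only miR-4319 shares the seed of miR-125, and no further miRNA shares that of miR-99/100.

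The chromosome 19 locus lies on the plus strand of GRCh38.p14, with miR-99b-5p at chr19:51692618-51692639 and miR-125a-5p at chr19:51693268-51693291. Its mature miRNAs, let-7e included, span 710 bases, and their genes lie within SPACA6 and the antisense gene SPACA6-AS1. On chromosome 11, on the minus strand, miR-100-5p at chr11:122152275-122152296 and 1 copy of miR-125b-5p at chr11:122099809-122099830 flank let-7a-2 within the long non-coding host gene MIR100HG. On the plus strand of chromosome 21, miR-99a-5p at chr21:16539101-16539122 and the other copy of miR-125b-5p at chr21:16590253-16590274 flank let-7c within MIR99AHG. These 2 loci span 52528 and 51211 bases. Both copies give the same mature miR-125b-5p, and the arrays cannot assign its signal to a locus. The 2 detected members of chromosome 19 thus lie close to each other, and both miR-99a-5p and miR-100-5p lie far from the copy of miR-125b-5p on their own chromosome.

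Each miRNA has a total signal per array, an intensity after background subtraction, summed over those of its probes whose signal is more than 3 times its error. A miRNA with no such probe is marked undetected and listed at 0.1. The number of detected miRNAs ranged from 310 to 594 by array, and 75.3% of all human miRNAs were detected on none. Total signals were divided by the array's 99th percentile, which was between 125.0 and 475.6 intensity units, raised to a common floor of 0.431% of that percentile (log2 of −7.86), and log2 was taken. The 99th percentile in substate 2 was 0.565, 0.794 and 0.695 times that in substate 1 in experiments 1, 2 and 3, which the scaling removes. All differences are substate 2 minus substate 1. Scaling by labelled amount in place of the percentile moved the median difference of all tested miRNAs to −0.51, and normexp background correction moved it to 0.33, so values under these settings are given relative to that median. The normexp correction added an offset of 50 to every spot, while the median spot signal of a member's probe was at most 38.2. The arrays of experiment 1 shared slide 1, while those of experiments 2 and 3 shared slide 2. Both substates are present on each slide, so each difference within an experiment is also a difference within a slide. In RNA from exosomes, fewer cells of a type, less RNA per cell and less release into exosomes cannot be told apart.

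Markers of the labelled cell type were present in part. Of 8 ES cell miRNAs, 5 (miR-302a-3p to miR-302d-3p and miR-367-3p) were detected on every array, and miR-372-3p was detected on none. MiR-371a-3p was detected on 2 arrays and miR-373-3p on 1, below the common floor. The summed signal of the 8 was between 854% and 1397% of the 99th percentile in substate 1 and between 813% and 1209% in substate 2. It was lower in substate 2 in experiments 1 and 3 and higher in experiment 2. None of 4 blood cell miRNAs and not the liver miRNA miR-122-5p was detected. Of 5 mesenchymal miRNAs, 2 were detected on at least 1 array, with a summed signal of at most 0.361% in substate 1 and 0.451% in substate 2, while miR-143-3p, miR-199a-5p and miR-214-3p were undetected throughout.

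Of the 5 members, 1 (miR-99b-5p) was detected on all 6 arrays, as were 11.3% of all human miRNAs. MiR-125a-5p and miR-125b-5p were each detected on 5 arrays, and miR-99a-5p and miR-100-5p on none. The 3 detected members passed the filter of detection on at least 3 arrays, which left 474 miRNAs (18.6% of all). Of these 3, miR-125b-5p was at least 2-fold higher in substate 2 and 0 were at least 2-fold lower, beside 4.85% and 4.64% of all tested miRNAs. Over all 474 miRNAs the differences lay between −1.70 and 2.51 with a median of −0.01, and the median of the 3 tested members was 0.01. Across all 474, limma called 0% higher and 0% lower (adjusted p under 0.05 and at least 2-fold; smallest adjusted p = 0.139), while 23% had an unadjusted p under 0.05.

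**Figure D1:**
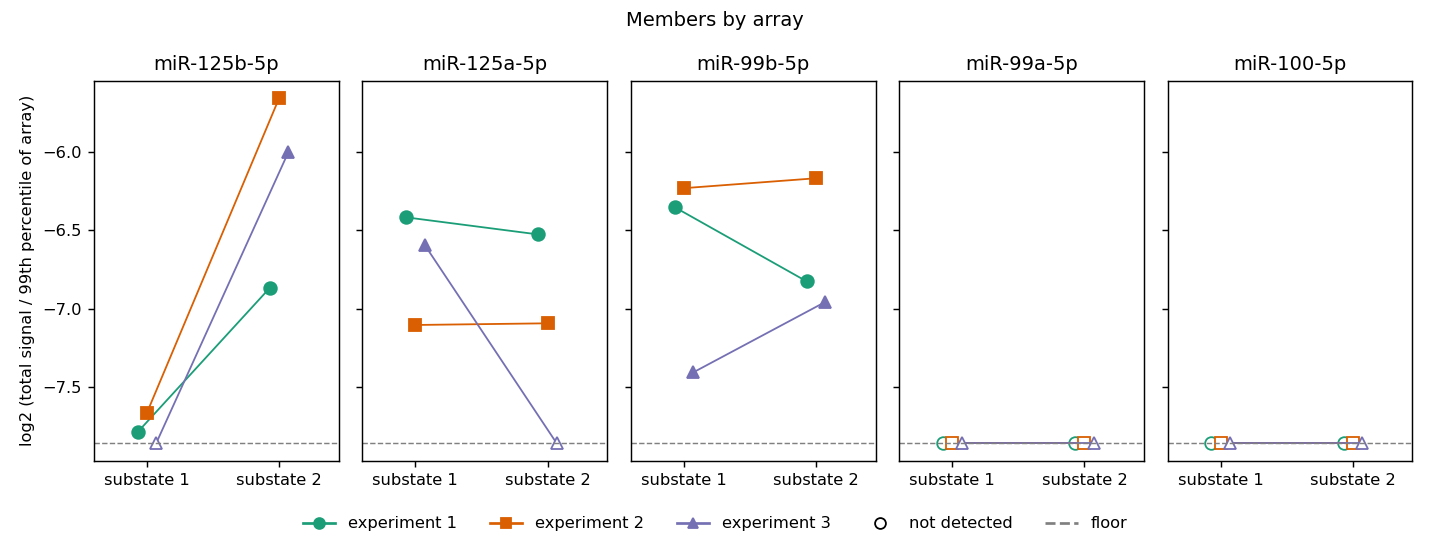
Log2 of the total signal over the 99th percentile of the array for the 5 members, by substate, with 1 symbol per array and a line joining the 2 arrays of an experiment. Open symbols are undetected and lie at the dashed floor of −7.86. The lines of miR-125b-5p rise in all 3 experiments, those of miR-125a-5p and miR-99b-5p differ in direction, and miR-99a-5p and miR-100-5p stay at the floor.

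MiR-125b-5p, the member of the family encoded on chromosomes 11 and 21, was higher in substate 2 in every experiment. Its total signal in experiment 1 was 2.15 ± 0.396 (error given by the scanner software) in substate 1 and 2.30 ± 0.330 in substate 2. In experiment 2 it was 1.75 ± 0.339 and 5.58 ± 0.631. In experiment 3 it was undetected in substate 1 and 1.95 ± 0.349 in substate 2. Unscaled, substate 2 was thus 1.07-fold in experiment 1, less than the error of the signals, and 3.19-fold in experiment 2. Scaled to the 99th percentile, the log2 level was −7.79, −7.66 and −7.86 in substate 1, the last being the floor, and −6.87, −5.66 and −6.00 in substate 2. The lowest substate 2 array lay above the highest substate 1 array, as was so for 11.8% of the tested miRNAs in this direction. The differences were 0.92, 2.01 and 1.86, with a mean of 1.59 ± 0.59 (SD, n = 3 experiments), a fold of 3.02. Only 2 tested miRNAs had a higher mean difference, while 21.1% of them were higher in all experiments. Relative to the median of all tested miRNAs its mean was 1.61, and it was 1.69 with scaling by labelled amount but only 0.23 with normexp background correction. The level was −7.77 ± 0.10 (SD, n = 3) in substate 1 and −6.18 ± 0.62 in substate 2, so the 3 arrays of substate 1 lay within a narrow band next to the floor and those of substate 2 were spread. In experiment 3 substate 1 was undetected and placed at the floor, below the 0.502% of the 99th percentile that its brighter probe gave. That probe by itself differed by 1.63, so the floor enlarged the difference of 1.86.

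MiR-125a-5p, which has the same seed and comes from chromosome 19, had no common direction. Its total signal was 5.56 ± 0.639 in substate 1 and 2.91 ± 0.393 in substate 2 in experiment 1, and 2.58 ± 0.392 and 2.06 ± 0.358 in experiment 2. In experiment 3 it was 1.86 ± 0.383 in substate 1 and undetected in substate 2. After scaling the log2 level was −6.42, −7.10 and −6.59 in substate 1 and −6.53, −7.09 and −7.86 in substate 2. The 2 substates overlapped. The differences of −0.11, 0.01 and −1.27 gave a mean of −0.45 ± 0.71 (SD, n = 3 experiments), smaller than its spread. The mean was carried by experiment 3, where the miRNA was set to the floor in substate 2, and without that experiment it was −0.05. Relative to the median of all tested miRNAs the mean was −0.44. It was −0.48 with scaling by labelled amount and −0.02 with normexp background correction.

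MiR-99b-5p, the neighbour of miR-125a-5p on chromosome 19, was the member detected throughout. Its total signal was 5.82 ± 0.637 in substate 1 and 2.37 ± 0.375 in substate 2 in experiment 1, 4.72 ± 0.544 against 3.92 ± 0.505 in experiment 2, and 1.06 ± 0.352 against 1.01 ± 0.306 in experiment 3. The unscaled signal in substate 2 was 0.407, 0.829 and 0.949 times that in substate 1. After scaling the log2 level was −6.35, −6.23 and −7.41 in substate 1 and −6.83, −6.17 and −6.96 in substate 2. The substates overlapped, and the differences of −0.47, 0.06 and 0.45 pointed both ways, with a mean of 0.01 ± 0.46 (SD, n = 3 experiments). Relative to the median of all tested miRNAs the mean was 0.03, and it was 0.05 with quantile scaling, −0.04 with scaling by labelled amount and −0.01 with normexp background correction, all far smaller than the spread between experiments.

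**Figure D2:**
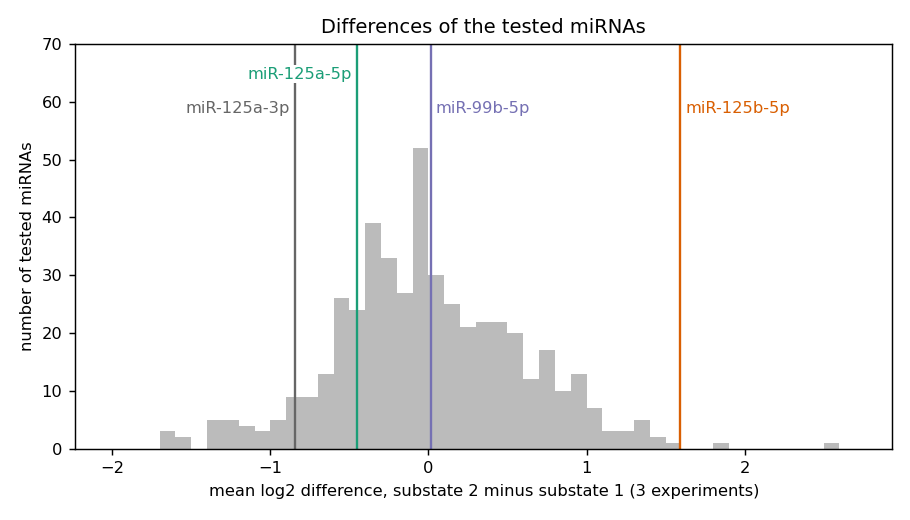
Mean log2 difference between the substates for the 474 tested miRNAs (grey bars, number of miRNAs per interval of the difference), with vertical lines at the 3 tested members and at miR-125a-3p. MiR-125b-5p at 1.59 lies in the upper tail, with 2 miRNAs beyond it, while miR-125a-5p at −0.45 and miR-99b-5p at 0.01 lie in the body.

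The scaling drops out when members are set against each other within an array and only the change of their ratio is read. For each member the brighter of its probes was used, whose level does not depend on the detection mark or the floor. The log2 ratio of miR-125b-5p to miR-125a-5p changed from −0.90 to 0.27 in experiment 1, from −0.56 to 1.43 in experiment 2 and from −1.04 to 1.14 in experiment 3. The changes of 1.17, 1.99 and 2.19 had a mean of 1.78 ± 0.54 (SD, n = 3 experiments). The 2 carriers of 1 seed thus changed unequally in each experiment. The ratio of miR-125b-5p to miR-99b-5p changed by 1.29, 2.04 and 1.18, with a mean of 1.50 ± 0.47. For the neighbours on chromosome 19 the ratio of miR-99b-5p to miR-125a-5p changed by −0.12 and −0.04 in experiments 1 and 2 and by 1.00 in experiment 3, with a mean of 0.28 ± 0.63. In experiment 3 the probe of miR-125b-5p in substate 1 and that of miR-125a-5p in substate 2 were below 3 errors. These ratios contain the values by which miR-125b-5p was chosen and are therefore descriptions too.

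**Figure D3:**
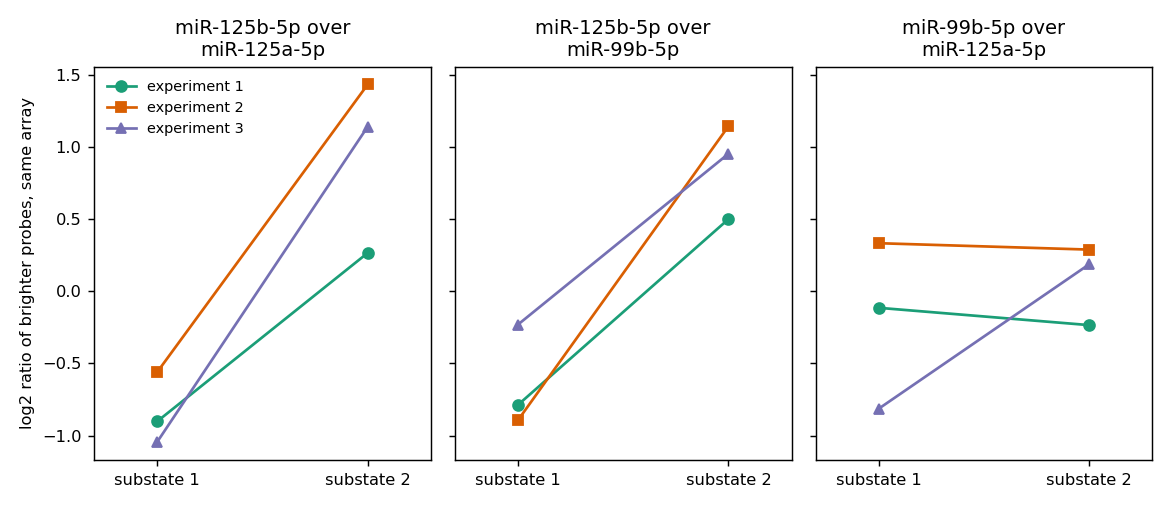
Log2 ratio of the brighter probes of 2 members on the same array, by substate, with 1 line per experiment. Both ratios with miR-125b-5p as numerator rise in all 3 experiments, by 1.17 to 2.19 against miR-125a-5p and by 1.18 to 2.04 against miR-99b-5p, and the ratio of miR-99b-5p to miR-125a-5p rises in experiment 3 alone.

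Each member has 2 probes, each printed as 10 spots per array, so agreement between probes and the distance of each from its error could be examined. The brighter probe of miR-125b-5p had signals of 0.453% ± 0.0834, 0.493% ± 0.0955 and 0.502% ± 0.193 of the 99th percentile in substate 1 (± error of the probe) and of 0.857% ± 0.123, 1.98% ± 0.224 and 1.56% ± 0.279 in substate 2, in experiments 1, 2 and 3. In substate 1 the 3 arrays were closer to each other than their errors, and each array of substate 2 lay above all of them. The probe differed by 0.92, 2.01 and 1.63 on the log2 scale, and in substate 1 of experiment 3 it stood at 2.61 errors, just short of detection. Its second probe never exceeded 2.07 errors, so the signal of miR-125b-5p rests on 1 probe. The spots of the brighter probe had a coefficient of variation of 9.69% to 27.1% by array.

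The brighter probe of miR-125a-5p had 0.847% ± 0.110, 0.727% ± 0.110 and 1.04% ± 0.213 in substate 1 and 0.712% ± 0.112, 0.733% ± 0.127 and 0.707% ± 0.243 in substate 2. Its undetected array, substate 2 of experiment 3, stood at 2.91 errors. There the probe itself differed by −0.55, against −1.27 for the floored total signal, so the larger figure includes the step from just under the detection limit to the floor. The dimmer probe passed 3 errors on 2 arrays, both of experiment 1. For miR-99b-5p the brighter probe passed on all 6 arrays, at 3.01 to 7.47 errors, and the dimmer on 4, those of experiments 1 and 2. In experiment 3 both of its detected arrays were close to the limit, at 3.01 errors in substate 1 and 3.29 in substate 2.

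MiR-99a-5p and miR-100-5p, which the long loci hold beside the copies of miR-125b-5p, gave no signal over the limit of detection. The probes of miR-99a-5p lay between −0.304 and 0.639 errors, and 0 of its 120 spots were well above background. Those of miR-100-5p lay between 0.0354 and 1.88 errors, with 1 of 120 spots well above background. A probe signal of 3 errors corresponded to between 0.208% and 0.692% of the 99th percentile for miR-99a-5p and to between 0.210% and 0.694% for miR-100-5p, depending on the array. Levels under these limits were not detectable, and no difference between the substates could be measured for either member.

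**Figure D4:**
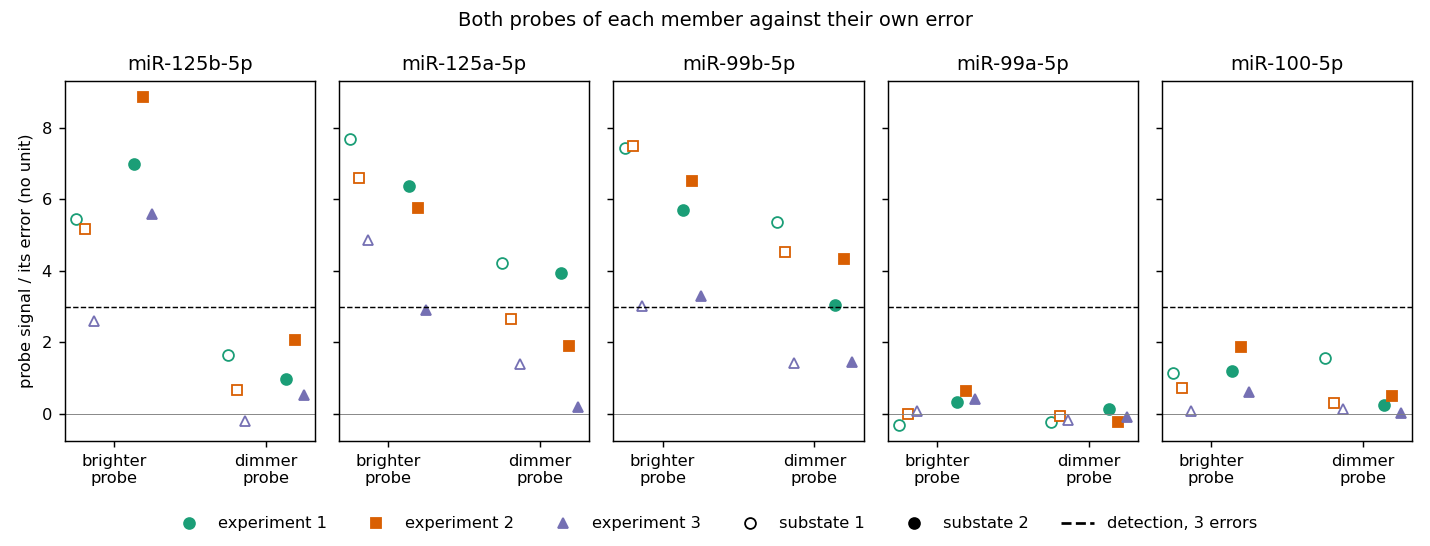
Signal of both probes of each member divided by its own error (no unit), with open symbols for substate 1, filled symbols for substate 2 and 1 shape per experiment. The dashed line marks detection at 3 errors. Of 12 pairs of probe and array, 7 lie above it for miR-125a-5p, 5 for miR-125b-5p, 10 for miR-99b-5p and 0 for miR-99a-5p and miR-100-5p.

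The same loci give 12 other mature miRNAs, of which 11 were measured (let-7a-2-3p was not analysed here). Among all human miRNAs, 75.3% were detected on no array and 18.6% could be tested. Of the 11, 3 were detected on any array and 1 could be tested. The sequences of these 3 opposite arms, with the seed in capitals and from the same RefSeq table, differ from the members and from each other at their seed.
miR-125a-3p: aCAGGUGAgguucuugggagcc
miR-125b-1-3p: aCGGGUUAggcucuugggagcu
miR-125b-2-3p: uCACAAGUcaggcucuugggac

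MiR-125a-3p, the other arm of the hairpin that gives miR-125a-5p (chr19:51693306-51693327), was detected on all 6 arrays and was lower in substate 2 in each experiment. Its total signal was 31.9 ± 1.89 in substate 1 and 12.5 ± 0.775 in substate 2 in experiment 1, 36.9 ± 2.17 against 10.6 ± 0.702 in experiment 2, and 9.40 ± 0.670 against 4.49 ± 0.427 in experiment 3. The unscaled signal in substate 2 was 0.391, 0.287 and 0.478 times that in substate 1. On the scaled log2 scale it went from −3.81 ± 0.50 (SD, n = 3) to −4.65 ± 0.20, and the 2 substates did not overlap, as was so for 14.1% of the tested miRNAs in this direction. The differences of −0.53, −1.47 and −0.54 had a mean of −0.85 ± 0.54 and missed the threshold (limma, adjusted p = 0.215). Among the tested miRNAs 29 had a lower difference, and 23.4% were lower in all experiments. Relative to the median of all tested miRNAs the mean was −0.83, and it was −0.90 with scaling by labelled amount and −0.51 with normexp background correction, where the differences before subtracting the median were 0.02, −0.67 and 0.09. The 5p arm of the same hairpin had differed by −0.11, 0.01 and −1.27, and the difference between the arms was not tested.

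The 3p arms of miR-125b were at the limit of detection. MiR-125b-1-3p, of the chromosome 11 copy, was detected only in substate 1, with total signals of 0.533 in experiment 1 and 1.05 in experiment 2, both below the common floor. MiR-125b-2-3p, of the chromosome 21 copy, was detected only in experiment 1, at 3.02 in substate 1 and 0.779 in substate 2, the latter below the common floor. Neither arm was detected in substate 2 of experiments 2 and 3, where miR-125b-5p had its highest scaled levels. The remaining 8 partners, miR-99a-3p, miR-99b-3p, miR-100-3p, let-7a-5p, let-7c-5p, let-7c-3p, let-7e-5p and let-7e-3p, were undetected on all arrays.

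Of 9 let-7 family miRNAs, known as late-acting timing miRNAs that promote differentiation, 0 were detected on any array. Across all human miRNAs, 75.3% were detected on none. Likewise undetected were miR-10a-5p and miR-10b-5p, relatives of miR-99/100, and miR-4319, the other carrier of the miR-125 seed. Within the families, their loci and these relatives, total signals were thus seen for miR-125a-5p, miR-125b-5p, miR-99b-5p and the 3p arms of miR-125a and miR-125b.

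Differences between experiments were independent of the choice of members and were tested. In the limma F-test over the 474 miRNAs, with Benjamini-Hochberg adjustment, 0% differed between experiments, and 25.1% had an unadjusted p under 0.05. The adjusted p was 0.537 for miR-125a-5p, 0.547 for miR-125b-5p and 0.259 for miR-99b-5p. With normexp background correction all 3 passed, with adjusted p of 0.000395, 0.000372 and 0.000387, as did 417 of the 474 miRNAs. Experiment differs also in labelled amount, passage and, for experiment 1, in slide and software version, and these cannot be told apart. Total signals also differed by experiment in the probes they summed. Both probes entered for miR-125a-5p only in experiment 1 and for miR-99b-5p only in experiments 1 and 2. Floored arrays of the tested members were all in experiment 3, and the part of detection in the F-test was not tested. The labels do not say whether the experiments were separate cultures, so p-values measure only the spread between these arrays, which may be technical.

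Over the 6 arrays the 3 tested members did not share 1 pattern. Pearson's r of the log2 levels was −0.64 between miR-125a-5p and miR-125b-5p, −0.03 between miR-125a-5p and miR-99b-5p, and 0.19 between miR-125b-5p and miR-99b-5p. The values include arrays at the floor and share the scaling of each array. In experiment 3 the floored array was that of substate 1 for miR-125b-5p and that of substate 2 for miR-125a-5p. Each r spans both substates, so those with miR-125b-5p contain the difference by which it was chosen and are descriptions. The miRNAs named next were picked as the highest r among all tested. The tested miRNAs most like miR-125b-5p were miR-361-5p (r = 0.992), miR-130b-3p (r = 0.980) and miR-331-3p (r = 0.979), each over 6 arrays. All 3 were detected on every array, with mean log2 differences of 1.40, 1.35 and 0.59. Those most like miR-125a-5p were miR-4257 (r = 0.904), miR-4428 (r = 0.894) and miR-4716-3p (r = 0.863). For miR-99b-5p they were miR-874-3p (r = 0.913), miR-3610 (r = 0.891) and miR-4728-5p (r = 0.860).

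Scaled to the 99th percentile, a neural marker was higher in substate 2 in each experiment, as were miR-125b-5p and 21.1% of all tested miRNAs. Of 3 neural miRNAs, miR-124-3p, abundant in neurons, was detected on all 6 arrays, and miR-9-5p and miR-9-3p were detected on none. The summed signal of the 3, all of it from miR-124-3p, was between 1.57% and 2.00% of the 99th percentile in substate 1 and between 2.04% and 3.25% in substate 2. Unscaled, the total signal of miR-124-3p fell from substate 1 to substate 2 in experiment 1 (7.46 to 5.49) and experiment 3 (3.60 to 3.23). It rose only in experiment 2 (5.81 to 9.15). After scaling its log2 difference was 0.58 ± 0.35 (SD, n = 3 experiments; limma, adjusted p = 0.215), and its part in the level of miR-125b-5p was not tested. Relative to the median of all tested miRNAs the difference was 0.59, and it was 0.53 with scaling by labelled amount and 0.12 with normexp background correction. With scaling by labelled amount the differences before subtracting the median were −0.44, 0.65 and −0.16, with a mean of 0.02.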

How the data were processed

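Exosome-derived miRNAs of 3 paired experiments were measured on Agilent SurePrint G3 arrays. The authors' deposited scanner files hold spot and total signal intensity from Agilent Feature Extraction (12.0.3.2 for experiment 1, 11.5.1.1 for experiments 2 and 3), background-subtracted but not scaled between arrays. The deposited log2 values were made by the authors with GeneSpring GX. Here, total signals were divided by each array's 99th percentile over 2549 human miRNAs, raised to the highest of the arrays' lowest detected scaled signals, and put on the log2 scale. The total equalled the sum of probes over 3 errors within 0.1% for every detected miRNA. MiRNAs detected on at least 3 arrays were fitted with limma 3.58.1 (R 4.3.3), two-sided, the experiment entering as a block. The fit was also run on simulated data with normal noise. That simulation had no floor and no undetected arrays, so it does not show how the fit behaves for miRNAs near the floor. The pairing comes from the experiment numbers in the labels. Deviations of paired arrays from their substate means correlated at 0.674, 0.0307 and 0.517 in experiments 1, 2 and 3. Named miRNAs were the members, miRNAs of their loci, let-7, miR-10, carriers of a member's seed, fixed cell markers and, per tested member, the 3 most correlated miRNAs. Members, lists and tests were chosen with earlier results of these data known. Alternatives covered scaling, floor, signal, background, filter, fit, test and each experiment left out. The number of arrays limits the precision. RefSeq coordinates are those of GRCh38.p14; the array files name no genome build.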

Additional observations from a re-analysis of the deposited data

How the results depend on the processing

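The mean difference of miR-125b-5p was positive in all 16 alternatives that gave a value, from 0.55 to 2.47, that of miR-125a-5p was positive in 1 of 16, and that of miR-99b-5p in 11 of 17. Dropping the filter or changing the block or the test cannot alter a mean difference in this balanced design, so these alternatives repeat the main value. The counts therefore do not measure robustness, and miR-125b-5p was chosen by this same difference. With normexp background correction miR-125b-5p had 0.55 and miR-125a-5p 0.31, where the median of all miRNAs had shifted to 0.33, so relative to it they had 0.23 and −0.02. Normexp also gave 1 call higher and 2 lower, 1 and 2 miRNAs at least 2-fold higher and lower, and 417 miRNAs differing between experiments, with adjusted p of 0.000395 for miR-125a-5p, 0.000372 for miR-125b-5p and 0.000387 for miR-99b-5p. With the deposited log2 values miR-125b-5p had 2.47 and miR-125a-5p −1.37 (median of all −0.12), 68 and 72 miRNAs were at least 2-fold higher and lower, and 47 differed between experiments. In experiments 1, 2 and 3 these deposited values differed by 1.06, 1.59 and 4.77 for miR-125b-5p and by 0.03, −0.40 and −3.74 for miR-125a-5p. The largest difference of each was in experiment 3, where each had an undetected array. Scaling by labelled amount gave −0.55 for miR-99b-5p (median of all −0.51), with 4 higher, 97 lower and 81 differing between experiments. At least 2-fold counts were 50 higher with each array's own floor, 14 higher and 12 lower with processed spot signals, and 13 lower with all probes summed, an alternative chosen after seeing the data. Among the 289 miRNAs detected on all 6 arrays, limma called 5 higher and 2 lower, with 7 at least 2-fold lower, and miR-125a-5p and miR-125b-5p have no value there. Without the replicate block that pairs the arrays of an experiment, 0 were called higher and 1 lower. No member was among any of these calls. Leaving out each experiment in turn gave 1.39 to 1.93 for miR-125b-5p, −0.69 to −0.05 for miR-125a-5p, −0.21 to 0.26 for miR-99b-5p, 0 calls, 18 to 43 miRNAs at least 2-fold higher (43 without experiment 1 and 36 without experiment 3) and 17 to 29 lower. A paired t-test, the kind named in the methods, called 0 in either direction after Benjamini-Hochberg adjustment over all 474 tested miRNAs. It was run here on the floored values. The study tested only miRNAs with a 2-fold difference, on its own GeneSpring values, so this count does not repeat the study's test. The part of the normexp offset of 50 in these shifts was not tested, nor was any other cause. The signals of the members were close to their errors, which limits every difference given for them.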
